A study of Mus musculus with 4 samples.

Results

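The cytosolic ribosomal protein genes encode the protein part of the ribosome that translates nuclear mRNAs. They were taken as the protein-coding genes of the RefSeq annotation of GRCm38 whose symbols begin with Rpl or Rps and a digit, or with Rplp or Rpsa, without the Rps6k kinases. That gave 91 genes of 21887 protein-coding genes on chromosomes 1 to 19, X and Y. Of these, 77 are the core genes, 46 for the large subunit and 31 for the small subunit. The other 14 are paralogues, retrogenes and genes that share only the name. Their regions were the merged accessible regions that lay within 1 kb of either end of the gene, which gave 83 regions of 15328. Regions within 1 kb of an end of any protein-coding gene are called gene-edge regions here, and there were 7752.

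Chromatin accessibility was measured by ATAC-seq, which uses a transposase to cut and tag DNA that is not packed away. The cells were G1ER, a mouse erythroblast line derived from Gata1-null cells that carries a fusion of GATA1 to the oestrogen receptor ligand-binding domain. There were 2 libraries of wild-type G1ER and 2 of Chd7-/- G1ER, each from 50000 cells. The labelled transposition time was 1 h for both first replicates and 2 h for both second replicates. All cells were grown in IMDM with serum, EPO and SCF and had no treatment. CHD7 is a chromatin remodeller of the CHD family. Both knockout libraries carry the same code, E9, in the labels, so a clone and the genotype cannot be told apart. Nothing in the labels says that the libraries came from separate cultures, so the p-values measure the spread between these libraries, which may be technical. Within each genotype the libraries also differ in labelled time, so that spread includes any effect of the time.

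The 4 peak lists held 11084, 12043, 12443 and 11376 peaks, in the order wild-type replicates 1 and 2, then knockout replicates 1 and 2. That order is used for all values below. The level given for a region is the caller's pileup at its summit, recovered as a whole number from the authors' fold enrichment and −log10 p. It is written as fragments over that base. The read shift settings that fix what the caller counted were not given in the sources used here. Over the 8705 regions called in all 4 libraries the median pileup was 24, 28, 26 and 23 fragments. The most frequent background was 0.787, 1.077, 1.036 and 1.011 fragments, so wild-type replicate 1 was the shallowest. Of 15 erythroblast marker genes, 5 had a gene-edge region in all 4 libraries, among them Nfe2, Epor and Tfrc. No region was called at the ends of Gata1, Klf1, Slc4a1, Alas2, Hba-a1, Hbb-bt, Ank1 or Gfi1b. None of 16 marker genes of other cell types had a region in all 4 libraries, and Col1a1 was called in 1. Chd7 itself had no region within 1 kb of its ends in any library, so the genotype labels could not be checked from these lists.

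Ribosomal proteins are made in close to equal amounts from many unlinked genes, and their shared control has been traced to features of the promoter and to the start of the transcript. Their mRNAs begin with a cytosine followed by a run of pyrimidines, the terminal oligopyrimidine or TOP start, through which mTOR signalling sets their translation. Erythroid precursors translate heavily, and loss of 1 copy of RPS19, RPL5, RPL11 or other ribosomal protein genes causes Diamond-Blackfan anaemia, a failure of red cell production.

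The promoters below show the sequence around the annotated start at some core genes, with or without such a pyrimidine run. Rps19, Rpl27a and Rps21 were among the genes with the highest pileup, Rpl5 and Rpl11 are anaemia genes, and Rpl37, Rpl13a and Rpsa are further core genes. Each is the 120 bases before and the 15 bases from the start annotated by RefSeq on GRCm38.p6, read 5′ to 3′ on the strand of the gene. Capitals mark CCGGAAG (the letters of an ETS factor site) and TCGCGAGA (the BoxA element) on either strand, and at least 5 pyrimidines counted from the C nearest to the start, where that C lies within 5 bases of it; pyrimidines just before that C stay in lower case.
Rps19: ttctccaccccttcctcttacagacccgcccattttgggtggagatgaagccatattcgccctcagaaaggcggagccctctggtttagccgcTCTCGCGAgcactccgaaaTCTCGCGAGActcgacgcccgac
Rpl5: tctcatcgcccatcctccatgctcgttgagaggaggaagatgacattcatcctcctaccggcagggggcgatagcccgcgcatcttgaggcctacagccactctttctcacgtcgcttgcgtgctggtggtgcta
Rpl11: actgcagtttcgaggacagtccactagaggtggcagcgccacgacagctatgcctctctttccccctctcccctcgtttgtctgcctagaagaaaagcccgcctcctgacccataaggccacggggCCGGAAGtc
Rpl27a: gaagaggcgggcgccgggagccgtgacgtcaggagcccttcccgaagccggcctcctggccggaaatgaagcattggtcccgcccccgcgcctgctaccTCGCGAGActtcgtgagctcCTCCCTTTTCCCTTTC
Rps21: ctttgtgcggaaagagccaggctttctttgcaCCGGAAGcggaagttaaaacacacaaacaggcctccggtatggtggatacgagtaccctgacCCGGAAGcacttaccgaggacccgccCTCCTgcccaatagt
Rpl37: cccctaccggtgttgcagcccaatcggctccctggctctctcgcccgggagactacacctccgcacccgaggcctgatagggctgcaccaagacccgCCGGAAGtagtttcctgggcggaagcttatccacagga
Rpl13a: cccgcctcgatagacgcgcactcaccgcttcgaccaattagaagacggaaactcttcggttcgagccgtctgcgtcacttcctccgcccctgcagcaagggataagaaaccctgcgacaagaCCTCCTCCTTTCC
Rpsa: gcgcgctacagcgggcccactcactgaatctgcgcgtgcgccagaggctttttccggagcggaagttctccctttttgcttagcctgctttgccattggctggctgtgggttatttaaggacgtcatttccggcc
The windows lie at chr7:24884472-24884606, plus strand (Rps19); chr5:107900408-107900542, plus strand (Rpl5); chr4:136053379-136053513, minus strand (Rpl11). The others lie at chr7:109519075-109519209, plus strand (Rpl27a); chr2:180257259-180257393, plus strand (Rps21); chr15:5116493-5116627, plus strand (Rpl37). The last are at chr7:45128731-45128865, minus strand (Rpl13a); chr9:120127646-120127780, plus strand (Rpsa). In the Rps19 window the capitals hold 3 matches to BoxA, some of which overlap because the element reads nearly the same on both strands. The Rpl27a window has 1 BoxA match and 17 pyrimidines counted from the C at −1 from the annotated start, the last 1 base past the stretch shown. With the 3 pyrimidines before that C, the whole run is 20 long and begins at −4. Rps21 has ETS letters that begin at −88 and −26 bases from the start, and 5 pyrimidines counted from the C at the start itself, in a whole run of 7 that begins at −2. The ETS letters of Rpl37 begin at −23 bases, and those of Rpl11 begin 6 bases after it. Rpl13a has a run of 14 pyrimidines that begins 2 bases after the start and also goes 1 base past the stretch. The windows shown of Rpl5 and Rpsa hold none of the 3 features; the longer Rpsa promoter entry does hold the ETS letters.

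The core ribosomal protein genes were open at their ends in most cases. Of the 77, 63 had a gene-edge region called in all 4 libraries (81.8%), against 6997 of 21887 protein-coding genes (32.0%). Another 7 core genes were called in 3 libraries, 2 in 1 library and 5 in none. The subunits gave similar shares, 37 of 46 large-subunit genes (80.4%) and 26 of 31 small-subunit genes (83.9%). The other members stood lower, with 4 of 14 (28.6%). Counted over regions, 70 of the 83 were called in all 4 libraries (84.3%, exact binomial 95% interval 74.7 to 91.4%, counting error only), against 76.8% of all gene-edge regions. The interval treats regions as independent draws, though they are the whole class and some belong to the same gene. It therefore does not judge the difference from 76.8%. No test of these shares was made, since the genes were chosen as a class.

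**Figure D1:**
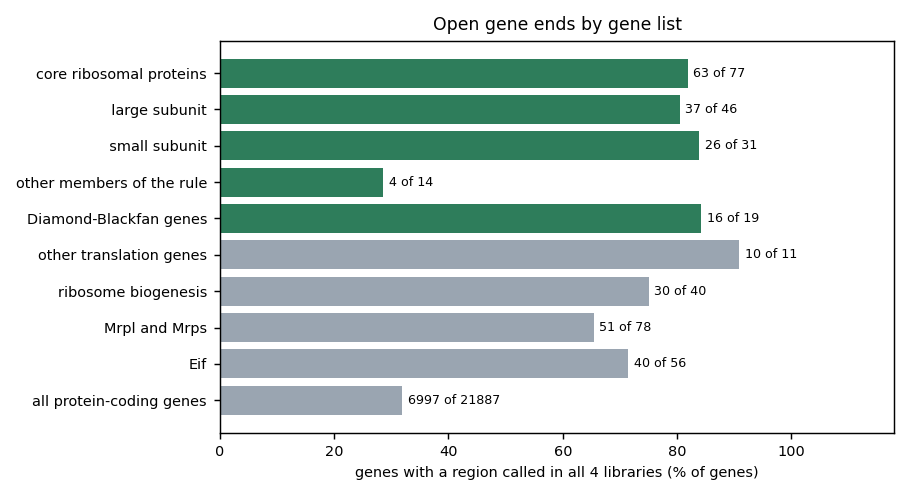
Share of genes (%) with a region called in all 4 libraries within 1 kb of a gene end, by gene list, with counts beside the bars. Core ribosomal protein genes stand at 63 of 77 and all protein-coding genes at 6997 of 21887.

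Of the 14 core genes not open in all 4 libraries at their ends, 5 had such a region inside the annotated gene span. They were Rpl22, Rps2, Rpl19, Rpl18 and Rpl17. Rpl22, a large-subunit protein known for its need in T cell development, had no region near its ends. A region at chr4:152325495-152326257 held 37, 37, 40 and 33 fragments, at an annotated start 1290 bp from the nearer end of the gene. Rps2, a small-subunit protein near the mRNA entry channel, had 43, 49, 36 and 43 fragments at chr17:24719674-24720325, with the start 1864 bp from the nearer end. In each library both were above the median member region, which stood at 25, 29, 24.5 and 24 fragments. Rpl19 had 21, 15, 20 and 15 fragments at chr11:98026499-98027103, with the start 3783 bp from the nearer end. Rpl18 was called at its outer end in 3 libraries, while its region at an internal start, chr7:45717690-45718266, held 44, 63, 43 and 37 fragments. Rpl17 had 14, 15, 21 and 19 fragments in a region within the gene. With regions over the gene span or near any annotated start counted as well, a choice made after seeing the data, 68 of 77 core genes were open in all 4 libraries and 76 in at least 1. Rpl6, a large-subunit protein, was the exception, with no region called in any library. Many ribosomal protein genes have near-identical processed copies elsewhere in the genome, and how reads that fit several places were placed is not given in the sources used here.

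Other core genes outside the 63 had low pileups in the libraries that did call them. Rps27 had 16, 18 and 15 fragments and was not called in knockout replicate 1. Rpl10a, the protein of the large-subunit L1 stalk, had 16, 17 and 12 and was again not called in knockout replicate 1. The start region of Rps15a held 19, 16 and 19 fragments and also lacked a call in knockout replicate 1. Rpl12, a protein at the base of the large-subunit stalk, held 21, 16 and 10 fragments and was not called in knockout replicate 2. The X-linked Rps4x held 8, 12 and 9 fragments, and it too lacked a call in knockout replicate 2. Rpl23a was called only in wild-type replicate 2, with 12 fragments, and Rpl8 only in wild-type replicate 1, with 14. A missing call is a value under the caller's threshold in that library and not a measured 0.

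Among the 63 open core genes, Rps19, the small-subunit protein most often mutated in Diamond-Blackfan anaemia, had the highest pileup of all members. Its region, chr7:24883898-24884846, spans 949 bp and held 68, 74, 79 and 69 fragments. By pileup, every library put Rps19 above every other core gene. The authors' fold enrichment did not keep that rank, with Rps19 at 12.1, 11.4, 13.8 and 12.2. In each library another core gene was higher by that measure. In library order, examples were Rpl34 at 14.4, Rpl27a at 14.3, Rpl15 at 15.7 and Rpl37 at 15.03. Among the next by mean centred log2 pileup were Rpl27a with 46, 62, 56 and 49 fragments, Rps29 with 57, 53, 54 and 47, and Rps21 with 44, 47, 57 and 47. In raw fragments the genotypes overlapped at Rps19, Rpl27a and Rps29, and touched at 47 at Rps21. After centring on the library median, both knockout libraries lay above both wild-type libraries at Rps19 and Rps21, while Rpl27a and Rps29 still overlapped.

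At the low end of mean centred log2 pileup, Rpl35a, a large-subunit protein and anaemia gene, held 10, 11, 11 and 11 fragments. Rpl36a, on the X chromosome, held 12, 21, 11 and 8. Rpl13 held 17, 16, 9 and 15 fragments and Rpl29 held 12, 20, 15 and 11. Rps10, a small-subunit protein and anaemia gene, held 27, 9, 11 and 15. The 2 wild-type libraries of Rps10 lie at the extremes of its 4 values.

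**Figure D2:**
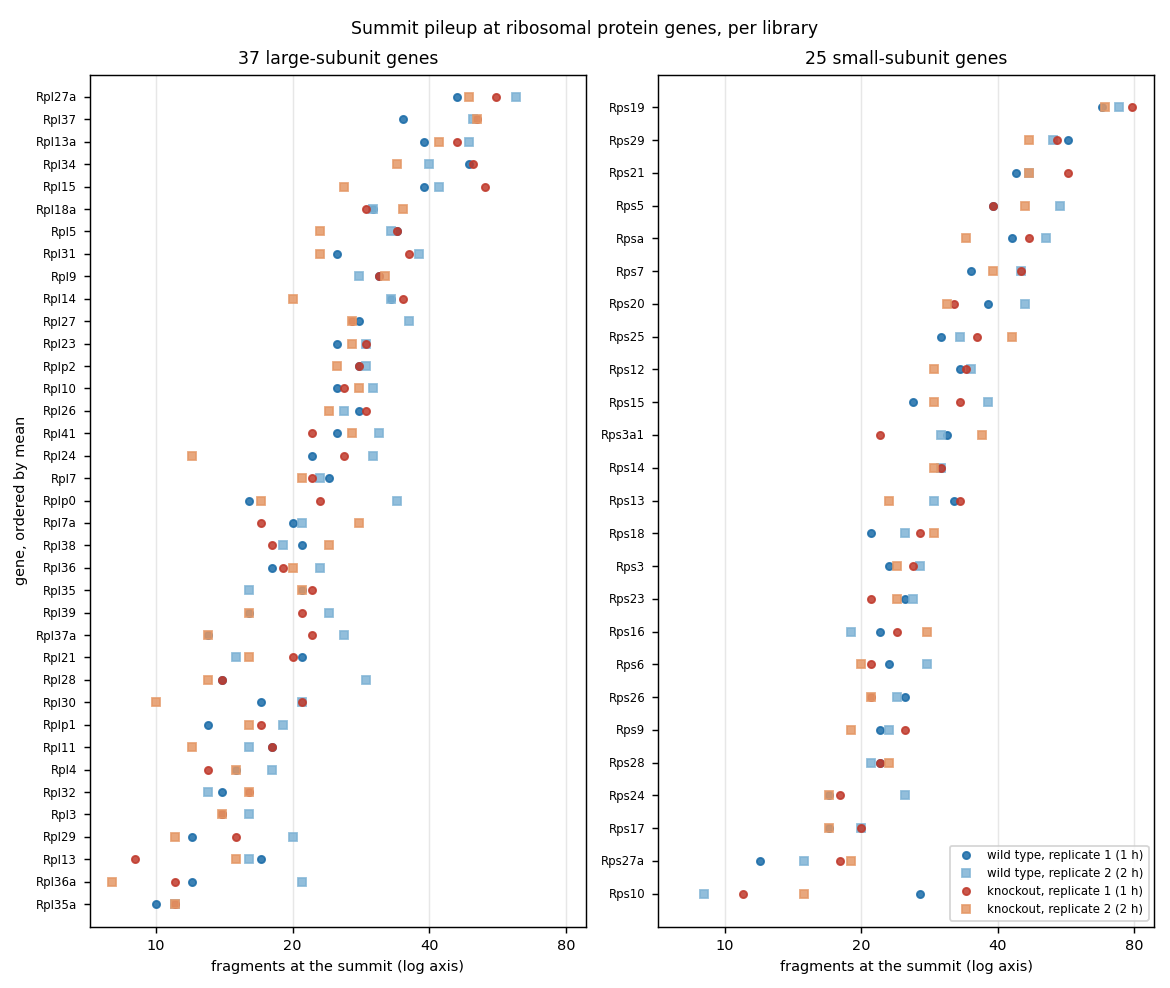
Summit pileup (fragments, log axis) in each of the 4 libraries for 37 large-subunit and 25 small-subunit genes with a region called in all 4, ordered by mean. Rps19 lies at 68 to 79 fragments, and Rpl35a at 10 to 11.

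The median mean pileup was 22.5 fragments for large-subunit genes and 29.5 for small-subunit genes, a difference given as a description. Over all 63 core genes it was 25, against 27.75 for all protein-coding genes with a gene-edge region called in all 4 libraries. Core regions were 595 bp wide at the median, from 325 to 1198 bp, against 674 bp. The core genes were thus open in a larger share than protein-coding genes at large. Where open, the large-subunit genes had a lower median pileup than 27.75 and the small-subunit genes a higher one. Of the core genes, 17 share their region with an end of another protein-coding gene, among them Rps21, Rpl35a, Rpl12, Rps27, Rplp2, Rpl15 and Rpl37. Those values cannot be assigned to either gene. With such regions left out, 48 of 77 core genes were open in all 4 libraries, another choice made after seeing the data.

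The anaemia genes were open in a share close to that of the other core genes. Of 19 core genes known from Diamond-Blackfan anaemia, 16 were open in all 4 libraries (84.2%), against 47 of the other 58 (81.0%), and their median pileup was 24.75. Rpl5 and Rpl11, which bind MDM2 with 5S RNA and so link ribosome assembly to p53, lay at middle and low levels. Rpl5 held 34, 33, 34 and 23 fragments, with knockout replicate 2 the lowest. Rpl11 held 18, 16, 18 and 12 fragments, and again knockout replicate 2 was the lowest. Rps14, the small-subunit gene behind the anaemia of the 5q deletion in human myelodysplasia, held 30, 30, 30 and 29.

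The acidic stalk proteins, which recruit elongation factors, had moderate levels. Rplp0 held 16, 34, 23 and 17 fragments, Rplp1 held 13, 19, 17 and 16, and Rplp2 held 28, 29, 28 and 25. The genotypes overlapped at Rplp0 and Rplp1, and touched at 28 fragments at Rplp2. Rpsa, the laminin receptor homologue of the small subunit, held 43, 51, 47 and 34 fragments. Rpl10, the X-linked protein added late in large-subunit maturation, held 25, 30, 26 and 28. Rpl38, known for effects on the translation of Hox mRNAs, held 21, 19, 18 and 24. None of these 3 separated the genotypes.

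Among the other 14 members, the open genes were Rpl36al, Rpl22l1, Rpl7l1 and Rpl3l, and Rps19bp1 was called in 3 libraries. Rpl36al, a paralogue of Rpl36a, held 40, 54, 52 and 47 fragments, above Rpl36a in every library, in a region that also holds an end of Mgat2. Rpl22l1, the paralogue of Rpl22, held 36, 32, 26 and 23. Rpl7l1 held 18, 25, 17 and 29 fragments. The Rpl3l region, with 24, 30, 24 and 39 fragments, lies at the far end of that gene next to Msrb1 and not at its annotated start. Rps19bp1, which encodes a binding partner of Rps19, held 10, 10 and 17 fragments and was not called in wild-type replicate 2. The 9 with no gene-edge region included the paralogues Rpl10l and Rpl39l. Rps27l was among these 9 too, but a region at a start 1462 bp from the nearer gene end held 15, 21, 24 and 23 fragments.

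Ribosome components whose symbols fall outside the rule were open as well. Fau encodes a ubiquitin-like protein fused to a small-subunit protein, and Rack1 is a small-subunit scaffold. Both had a region in all 4 libraries. Fau held 43, 56, 41 and 37 fragments, and Rack1 held 15, 19, 15 and 11. Of 11 other translation genes with TOP starts, such as Eef1a1 and Pabpc1, 10 were open in all 4 libraries (90.9%), at a median of 45.0 fragments. Of 40 ribosome biogenesis genes 30 were open (75%), with a median of 30.5. Of 56 Eif genes 40 were open (71.4%). Of 78 mitochondrial ribosomal protein genes, which serve a separate ribosome, 51 were open (65.4%), with a median of 26.0.

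The genotype comparison asked whether these regions differ in accessibility without Chd7. None of the 70 member regions tested passed. The rest of the 83 lacked a call in some library, more often a knockout library, and were not tested. In bulk cells, a region less open in every cell and a region open in fewer cells cannot be told apart. The log2 difference, knockout minus wild type, was taken on log2(pileup + 1), centred on the median of each library, and tested with limma over all 8705 regions called in all 4 libraries with Benjamini-Hochberg adjustment. At an adjusted p under 0.05, 0 of 70 member regions were higher and 0 were lower, and the same held over all regions (0% of 8705 in each direction). At an unadjusted p under 0.05 limma gave 2 of 70 member regions, against 757 of 8705 (8.70%). The median difference over the 70 was 0.01 (quartiles −0.14 and 0.14), against 0.02 over all 8705 and −0.00268 over the other gene-edge regions. Values were lower in the knockout at 35 member regions and higher at 35, against 46.5% lower over all regions. With centring on the background in place of the region median, 61 of the 70 were lower, at a median of −0.23, while the median of all regions moved to −0.21. That scaling therefore shifts all regions together, and the members followed it.

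**Figure D3:**
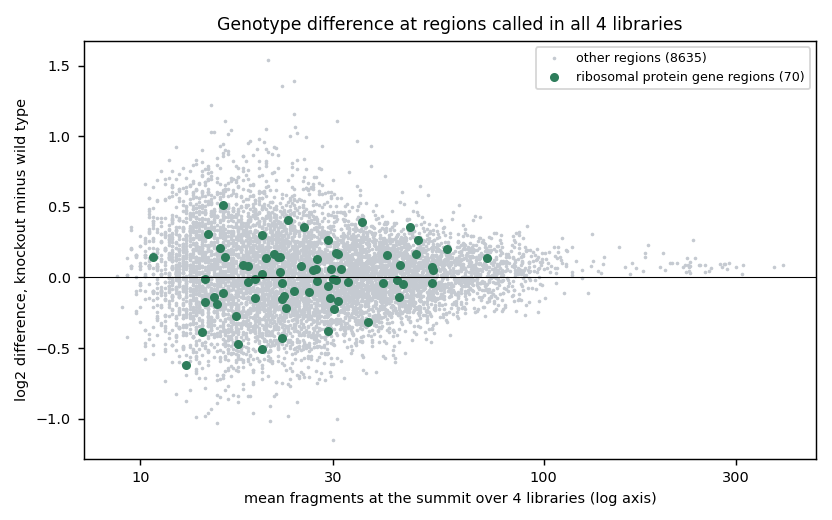
Log2 difference, knockout minus wild type, against mean summit pileup (fragments, log axis) for the 8705 regions called in all 4 libraries. The 70 ribosomal protein gene regions, in green, lie between −0.62 and 0.52 within the spread of the other regions.

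The member regions with the smallest p were Rpl36a, Rps27a, Rps25, Rpl22l1 and Rps18. Rpl36a held 12 and 21 fragments in wild type and 11 and 8 in the knockout, so the groups did not overlap. Its log2 difference was −0.62 ± 0.23 (SE, n = 2 per genotype), with a limma adjusted p of 0.480, and it was −0.35 without wild-type replicate 2. Rps27a, which encodes ubiquitin fused to a small-subunit protein, held 12 and 15 fragments in wild type and 18 and 19 in the knockout. Its difference was 0.52 ± 0.19 (SE), with an adjusted p of 0.484 by limma. Its region also holds an end of Clhc1. Rps25, needed for initiation at several viral internal ribosome entry sites, held 30 and 33 against 36 and 43 fragments (0.39, adjusted p = 0.633 by limma). Without knockout replicate 2 its difference was 0.18, and without knockout replicate 1 it was 0.60. The Rps25 region also holds an end of Trappc4. Rpl22l1 differed by −0.38 and Rps18 by 0.36, both with a limma adjusted p of 0.638. Rpl22l1 stood at −0.19 without wild-type replicate 1 and at −0.57 without wild-type replicate 2. Rps18 held 21 and 25 against 27 and 29 fragments, in a region that also holds an end of Vps52. The Rps18 difference was 0.22 without knockout replicate 2.

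Of the remaining large differences, Rps16 held 22 and 19 fragments in wild type and 24 and 28 in the knockout (0.41, limma adjusted p = 0.644). That difference was 0.20 without wild-type replicate 2, 0.22 without knockout replicate 2 and 0.62 without wild-type replicate 1. A region at the 3′ end of Rps9, chr7:3706978-3707333, held 15 and 35 against 16 and 14 fragments, a log2 difference of −0.51 (limma adjusted p = 0.665). Rpl28 held 14 and 29 against 14 and 13, a difference of −0.47 (limma adjusted p = 0.644). At both, wild-type replicate 2 alone was high, and without it the differences were −0.03 and −0.08, while without wild-type replicate 1 they were −0.98 and −0.86. Rps19, with the most fragments, differed by 0.14 ± 0.18 (SE). Rpl5 differed by −0.17, Rpl11 by −0.11 and Rps14 by 0.06. Fau and Rack1 differed by −0.25 and −0.29, with limma adjusted p of 0.779 and 0.731. Standard errors at core genes ran from 0.18 (Rps3) to 0.45 (Rps10), and at the single genes named here no difference passed the threshold with 2 libraries per genotype.

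Both knockout libraries lay above both wild-type libraries, after centring, at 17 of the 70 member regions, against 21.4% of all 8705. They lay below both at 6 of 70, against 17.3%. Replicate 1 and replicate 2 were each compared within their labelled time. The median member difference was −0.04 at 1 h and 0.08 at 2 h, with 12 regions lower at both times, 19 higher at both and 39 of opposite sign. The member regions called were 81, 80, 75 and 77 of 83 in the 4 libraries (97.6, 96.4, 90.4 and 92.8%), against 87.0, 90.6, 88.6 and 85.6% of all gene-edge regions. Core genes with a called region numbered 71 ± 0 in wild type and 67 ± 0 in the knockout (SD, n = 2), a difference of −4 (exact two-sided permutation p = 0.333, the smallest that 2 against 2 allows). Those are 92.2% and 87.0% of core genes in each library, while 35.4, 36.5, 35.9 and 35.01% of all protein-coding genes had a called gene-edge region. Whether the members' difference departs from that of the whole lists was not tested. Among regions missing from a single library, 0, 2, 4 and 3 member regions were missing from wild-type replicates 1 and 2 and knockout replicates 1 and 2, against 166, 55, 122 and 238 gene-edge regions. As shares these are 0, 2.41, 4.82 and 3.61% of the 83 and 2.14, 0.709, 1.57 and 3.07% of all gene-edge regions.

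Only 1 member region was called in both libraries of a genotype and in neither of the other. It lay within 1 kb of the end of Rpl36 next to Lonp1, chr17:56613245-56613550, with 16 and 21 fragments in wild type. Rpl36 had no promoter entry, so which of its ends holds the start was not determined. That is 1 of 83 called in wild type alone, against 1.77% of gene-edge regions, and 0 of 83 in the knockout alone, against 1.04%. The region at the other end of Rpl36 was called in all 4 libraries, with 18, 23, 19 and 20 fragments. Within each list, the median fold-enrichment percentile of the called member regions was 56.6, 55.1, 59.9 and 57.4. That is 55.9 ± 1.05 in wild type and 58.7 ± 1.71 in the knockout (SD, n = 2), with an exact two-sided permutation p of 0.333. The difference of 2.77 became 0.509 with a 500 bp gene edge and 2.03 over core regions alone, each with an exact permutation p of 1, and in core regions the 2 h pair gave −0.561.

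The accessible summit sat just before the annotated start. For the 47 core genes with a RefSeq promoter entry and a region at that start called in all 4 libraries, the median summit lay at −53 bases (quartiles −115 and −15, negative values being upstream). The summits of 70.2% were within 100 bases of the start, and those of 41 of the 47 were within 200 bases. For 5692 other protein-coding genes the median was −49 bases, and 61.8% were within 100 bases. That set was not limited to regions at an annotated start, and its summits ran from −614666 to 339842 bases. The shares within 100 bases therefore compare unlike sets. The farthest core summit was that of Rpl4, at −432 bases, in a region shared with Zwilch, and that of Rpl24 lay 65 bases downstream. Within a core region called in all 4 libraries, the summits spanned 65 bases at the median. At Rps19 the median summit lay at −205.5 bases, before the stretch printed above.

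**Figure D4:**
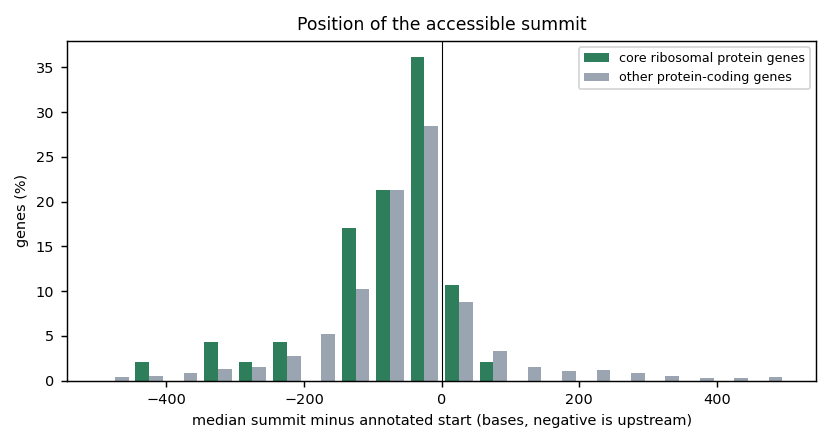
Share of genes (%) by the distance in bases from the annotated start to the median summit over 4 libraries, for 47 core ribosomal protein genes (green) and other protein-coding genes (grey). The highest green bar lies just upstream of 0, and the core median is −53 bases. Grey shares are of all 5692 other genes, some of whose summits lie outside the range shown. The grey set was not limited to regions at an annotated start.

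Sequence matches were counted in the RefSeq promoter entries, 300 bases each (250 before and 50 from the start, GRCm38.p6), which held 70 of the 91 members and 57 of the 77 core genes. All letters were searched on both strands except the pyrimidine start, which was read on the strand of the gene. A match describes the letters and is not a bound site. The comparison sets were 5743 protein-coding promoters of genes open in all 4 libraries and 17492 promoters in all. A pyrimidine start, with a C within 5 bases of the annotated start and at least 4 more pyrimidines after it, was present at 26 of 57 core promoters (45.6%). It was present at 19.8% of open promoters, 18.7% of all and 21.7% of 69 mitochondrial ribosomal protein promoters. With the C exactly at the start the shares were 21.1%, 2.26%, 2.17% and 0%. The 12 core genes with such an exact start included Rps21, Rps6, Rpl28, Rplp2 and Rps18. Its letters are those by which TOP mRNAs are defined, and the count depends on how closely RefSeq places the start.

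The ETS letters CCGGAAG were present at 23 of 57 core promoters (40.4%), 36.2% of mitochondrial ribosomal protein promoters, 23.9% of open promoters and 11.9% of all. Holders included Rpl37, Rps21, Rpsa, Rps7, Rpl11 and Rpl38. The median position of a match was −56 bases from the start at core promoters and −36 bases at open promoters. The BoxA letters TCGCGAGA were present at 10 core promoters (17.5%), against 3.395% of open promoters, 1.51% of all and 1.45% of mitochondrial ribosomal protein promoters. The 10 were Rpl7a, Rpl12, Rpl35, Rps3a1, Rps6, Rps19, Rpl27a, Rps15a, Rpl26 and Rps28. They span the range of pileup, from Rps19 at the top to Rps15a and Rpl12, which were called in 3 libraries.

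The letters TATAA were present at 26.3% of core promoters, against 10.95% of open promoters and 22.8% of all, and the longer TATAAA, which contains them, at 8.77%, 5.82% and 13.3%. The SP1 letters GGGCGG were present at 59.6%, 70.9% and 46.3%. The YY1 letters AAGATGGC were present at 7.02%, 6.22% and 3.22%, and the core ATGGCG, which shares 5 of its letters, at 26.3%, 19.7% and 11.2%. The E-box CACGTG, bound by MYC, was present at 8.77%, 11.5% and 7.90%, and the NRF1 letters GCATGCGC at 3.51%, 7.28% and 3.61%. The RUNX letters TGTGGT were present at 10.5%, 11.5% and 15.1%, and the GATA letters AGATAA at 5.26%, 5.43% and 9.96%. RUNX and GATA letters were thus at shares near those of open promoters in general. Core promoters had a median GC content of 58% and 21 CpG dinucleotides, against 62% and 23 in open promoters.

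**Figure D5:**
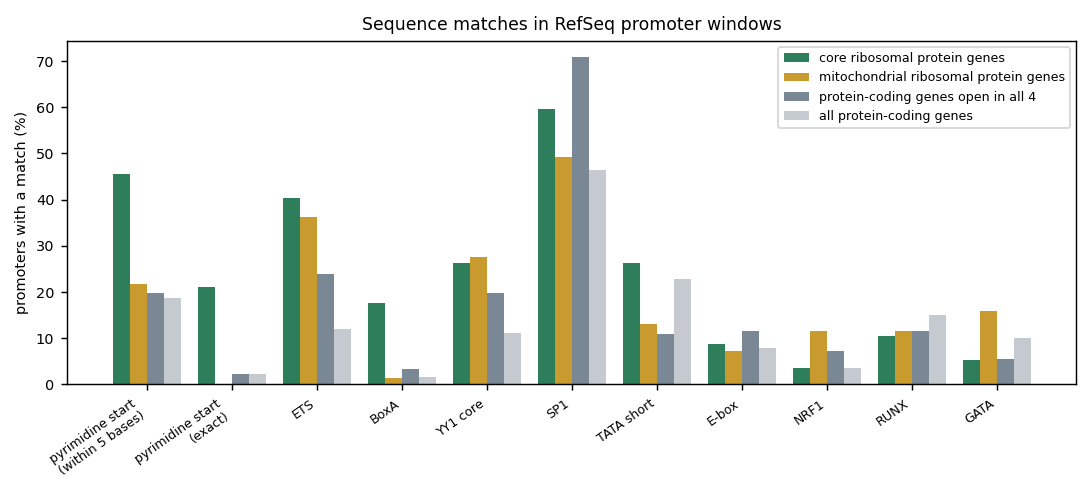
Share of 300-base RefSeq promoter entries (%) with each sequence match, for 57 core ribosomal protein genes, 69 mitochondrial ribosomal protein genes, 5743 genes open in all 4 libraries and 17492 protein-coding genes. Pyrimidine starts (45.6%), ETS (40.4%) and BoxA (17.5%) stand above open promoters in the core genes, and SP1 letters (59.6%) below.

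The matches went with small differences in level, given as a description over the 47 core genes with a region at the annotated start. The 20 with ETS letters had a median pileup of 27.1 fragments and the 27 without had 24. The 20 with a pyrimidine start had 23.5 and the 27 without had 27.25. The 28 with SP1 letters had 27.5 and the 19 without had 22.75, and the 14 with the YY1 core had 27.75 and the 33 without had 25. The median knockout minus wild-type difference was −0.01 with and −0.03 without ETS letters, and −0.02 with and −0.01 without a pyrimidine start.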

How the data were processed

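ATAC-seq libraries of 2 wild-type and 2 Chd7-/- G1ER samples were analysed from 1 deposited MACS2 peak list each. The submitters' processing notes list Bowtie2 2.2.1 and also MACS2 2.1.0. Per the file headers and names, positions are on GRCm38. The authors called peaks per library. For the threshold, control, read shift, duplicate removal and multi-mapped reads, the settings were not given in the sources used here. The smallest deposited −log10 q was 1.32 to 1.42. Each deposited score is a whole number that follows the −log10 q. The fold enrichment is the authors' ratio at the summit, which matched (pileup + 1)/(background + 1), and the −log10 p is the authors' own.

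Fold enrichment and −log10 p together gave the whole-number pileup and background of 100% of peaks in each list, within 0.001 in −log10 p. Peaks that overlapped or touched were merged. The test was limma 3.58.1 (R 4.3.3) on log2(pileup + 1), centred on each library's median, over regions called in all 4 libraries. Single values per library were compared by exact permutation. Scripts were tested on simulated data. The alternatives were other list lengths, thresholds, gene edges, centring, pseudocounts, filters, a replicate block and leaving out each library. The planned centring on the lowest background was run on the most frequent background. The same replicate number in both genotypes means the same labelled time, with no statement of a shared batch. The 2 pairs' deviations from the genotype means correlated at r = 0.00216 over all regions and −0.21 over the members.

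Genes named are the 5 highest and 5 lowest core genes by mean centred log2 pileup, and those without a region in all 4 libraries, with the smallest p or the largest differences, called in 1 genotype only, and a fixed set of known genes; some that the rule names are not reported here. The members, lists and rules were chosen with earlier results of these data known. Promoter sequences are RefSeq entries for GRCm38.p6, using the first listed for each gene.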

Additional observations from a re-analysis of the deposited data

Results flagged for a closer look

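The median centred log2 pileup of the member regions gave opposite signs at the labelled times, though the 2 h value was small. The knockout minus wild-type difference was −0.139 at 1 h (replicate 1 of each genotype) and 0.00998 at 2 h (replicate 2). The pooled SD of the per-library medians was 0.0709. As a separate measure, the median of the per-region differences was −0.04 at 1 h and 0.08 at 2 h. Each value comes from 1 library per genotype, and the difference between the times was not tested.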

How the results depend on the processing

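The count of core genes open in all 4 libraries stayed between 56 and 67 with other list lengths, thresholds, gene edges and merging and without each library. The median member log2 difference, 0.01 as reported, changed sign to −0.00465 with regions of a mean pileup of at least 15; no tested call reversed. Member regions called in 1 genotype only, 1 as reported, numbered 3 with lists of equal length, 3 at a −log10 q of at least 5, 0 with a gene edge of 500 bp, and 2 to 5 leaving out 1 library (5 without knockout replicate 2). With 1 library left out, the counts of open core genes and of such member regions needed calls only in the libraries that remained. Those settings therefore ask less than the main one. Limma calls among the members were 0 under all alternatives run. Over all regions limma gave 70 calls with centring on the most frequent background, where the median member difference also changed sign, to −0.227. With the replicate block limma gave 2 calls over all regions and 0 among the members. The block changed no other call. The share of core promoters with a pyrimidine start, 45.6% as reported, depended on the distance allowed. It was 54.4% with the C within 10 bases of the start and 21.1% with the C exactly at the start. The cause of these changes was not tested. Pileups ran from 8 to 79 fragments, intervals and counts cover counting error only, and the smallest exact p with 2 libraries per genotype was 0.333. For 17 core genes the region described also holds an end of a neighbour.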
